A study of Mus musculus with 2 samples.

Results

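The Mir23, Mir27 and Mir24 genes form a pair of paralogous clusters, Mir23a, Mir27a and Mir24-2 on mouse chromosome 8 and Mir23b, Mir27b and Mir24-1 on chromosome 13. These 6 genes were taken by their GENCODE M21 gene names from the 2202 microRNA genes counted. MicroRNA-seq was run on gastrocnemius, the calf muscle, of adult male mice aged 18 to 20 months from the F1 cross B6CASTF1/J, and no treatment or second condition was named. There was 1 group of 2 libraries, biological replicates 1 and 2, with inserts under 30 nt. Both biosamples carry the same donor label and nothing states that they came from separate animals, so the spread between them may be technical.

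Each microRNA gene is transcribed as part of a longer RNA and folds into a hairpin, from which a mature strand of its 5′ arm (5p) or 3′ arm (3p) is loaded into Argonaute. The seed, bases 2 to 8 of the mature strand, does most of the pairing with target messenger RNAs. The clusters arose by duplication, so that miR-23b-3p is the paralog of miR-23a-3p, and are known from endothelial cells and from muscle. There miR-23a is known to repress the atrophy ubiquitin ligases MuRF1 and atrogin-1, miR-27 to repress Pax3 and myostatin, and miR-24 to act in myoblast differentiation.

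The mature strands show how alike the clusters are. They are from RefSeq on GRCm38.p6, 5′ to 3′, with the seed in capitals, and are shown for the 3p strands of Mir23a, both Mir27 genes and the Mir24 genes and for the 5p strands of the Mir24 genes.
miR-23a-3p: aUCACAUUgccagggauuucc
miR-27a-3p: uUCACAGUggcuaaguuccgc
miR-27b-3p: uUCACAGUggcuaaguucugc
miR-24-3p: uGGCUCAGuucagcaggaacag
miR-24-2-5p: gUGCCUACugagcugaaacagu
miR-24-1-5p: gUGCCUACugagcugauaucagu

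miR-27a-3p and miR-27b-3p share their first 18 bases and differ by C19U, counted from 1 at the 5′ end with the base of miR-27a-3p first. miR-24-3p is encoded identically by both Mir24 genes, whereas miR-24-2-5p and miR-24-1-5p share their first 16 bases and the seed. The seeds of miR-23a-3p and miR-27a-3p differ by 1 base, U7G. No gene outside the clusters in the RefSeq table carries the seed of miR-23a-3p or of the miR-27 3p strands. The seed of miR-24-3p is also that of Mir6413, Mir6410, Mir6369 and Mir5124b. All 4 had no count in either library. Levels are given in CPM, counts scaled to a common total of assigned counts, on which 3 counts, the limit taken for a 0, are 0.675 CPM in replicate 1 and 1.39 CPM in replicate 2. This limit covers reads placed on 1 gene, and multimapping reads are outside it.

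The hairpins of the Mir24 pair carry the longest stretch shared by any paralogous pair here, in capitals below. It spans 28 bases, that is miR-24-3p with 3 bases to either side. The longest stretch shared by the hairpins was 20 bases for Mir23a and Mir23b and 20 bases for Mir27a and Mir27b.
Mir24-2 hairpin: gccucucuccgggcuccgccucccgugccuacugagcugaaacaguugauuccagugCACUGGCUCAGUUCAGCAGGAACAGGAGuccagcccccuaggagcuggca
Mir24-1 hairpin: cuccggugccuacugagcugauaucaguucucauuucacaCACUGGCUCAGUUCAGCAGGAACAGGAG

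The chromosome 8 cluster is the more compact. On mm10 (1-based) it runs from 84208518 to 84208921 on the plus strand, 404 bp with gaps of 79 and 56 bp between hairpins. Mir23a (ENSMUSG00000065611.1, 84208518 to 84208592) and Mir27a (ENSMUSG00000065444.1, 84208672 to 84208758) overlap no other gene in GENCODE M21. Mir24-2 (ENSMUSG00000065541.1, 84208815 to 84208921) shares its last 2 bases with an exon of the lincRNA gene Gm26532.

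The chromosome 13 cluster runs from 63300484 to 63301275 on the plus strand, 792 bp with gaps of 154 and 423 bp. It lies in the protein-coding gene 2010111I01Rik and opposite an intron of Fancc. Mir23b (ENSMUSG00000065599.2, 63300484 to 63300557) is intronic. Mir27b (ENSMUSG00000065475.2, 63300712 to 63300784) and Mir24-1 (ENSMUSG00000105904.1, 63301208 to 63301275) overlap untranslated exons of 2010111I01Rik transcripts annotated as targets of nonsense-mediated decay, and lie in introns of its protein-coding transcripts. Mir3074-2 and Mir3074-1 lie on the minus strand opposite Mir24-2 and Mir24-1.

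**Figure D1:**
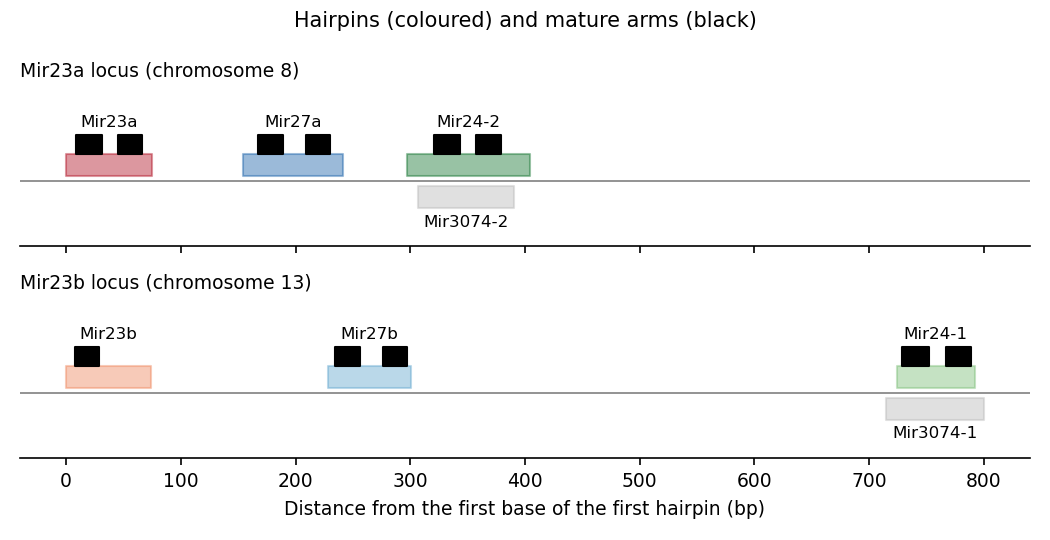
Map of both clusters in bp from the first base of the first hairpin, with plus-strand hairpins coloured above the line, mature arms listed in the RefSeq table in black and minus-strand hairpins in grey below. The chromosome 8 cluster spans 404 bp and the chromosome 13 cluster 792 bp, and each Mir24 hairpin has a Mir3074 hairpin opposite.

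The depth was 4442692 assigned counts in replicate 1 and 2156222 in replicate 2. These were 15.7% and 19.8% of the reads in the tables, and 20937712 and 7629149 reads were multimapping and belong to no gene row. How many of those came from the 6 genes was not measured. Counts come from PCR-amplified reads, so intervals cover counting error only. A gene's count also does not tell its 5p from its 3p strand. Each read stands for a whole small RNA, so CPM were not divided by hairpin length, and capture efficiency was not measured for any sequence.

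Each of the 6 genes reached the detection threshold of 2 CPM in both libraries. By reads placed on 1 gene, the Mir23 genes were among the 10 most abundant microRNA genes. The Mir24 genes were not among the 100 most abundant. The clusters together took 6.54% of assigned counts in replicate 1 (Wilson 95% interval 6.52 to 6.56) and 10.4% in replicate 2 (10.3 to 10.4). Mir23a and Mir23b made up 89.8% of the clusters' counts in replicate 1 and 94.9% in replicate 2.

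Mir23a had 128095 counts in replicate 1 and 115497 in replicate 2, or 28833 and 53565 CPM (41199 ± 17488, SD, n = 2, rank 7 of 2202). Mir23b had 132860 and 96685 counts, or 29905 and 44840 CPM (37373 ± 10560, rank 8). Each Mir23 gene was higher in replicate 2, and Mir23b led in replicate 1 while Mir23a led in replicate 2. The difference of their means was smaller than either SD.

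Mir27b had 25502 and 9586 counts, or 5740 and 4446 CPM (5093 ± 915, SD, n = 2, rank 30). Mir27a had 3136 and 1300 counts, or 706 and 603 CPM (654 ± 72.8, rank 60). Mir27b lay above Mir27a in both libraries without overlap, and both were lower in CPM in replicate 2.

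Mir24-2 had 790 and 192 counts, or 178 and 89.0 CPM (133 ± 62.8, SD, n = 2, rank 120). Mir24-1 had 226 and 225 counts, or 50.9 and 104 CPM (77.6 ± 37.8, rank 139). Their ranges overlapped, so the Mir24 genes did not differ beyond their spread. The order of levels was thus Mir23a and Mir23b, not separated, then Mir27b, then Mir27a, then Mir24-2 and Mir24-1, not separated. This order is of reads placed on 1 gene.

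**Figure D2:**
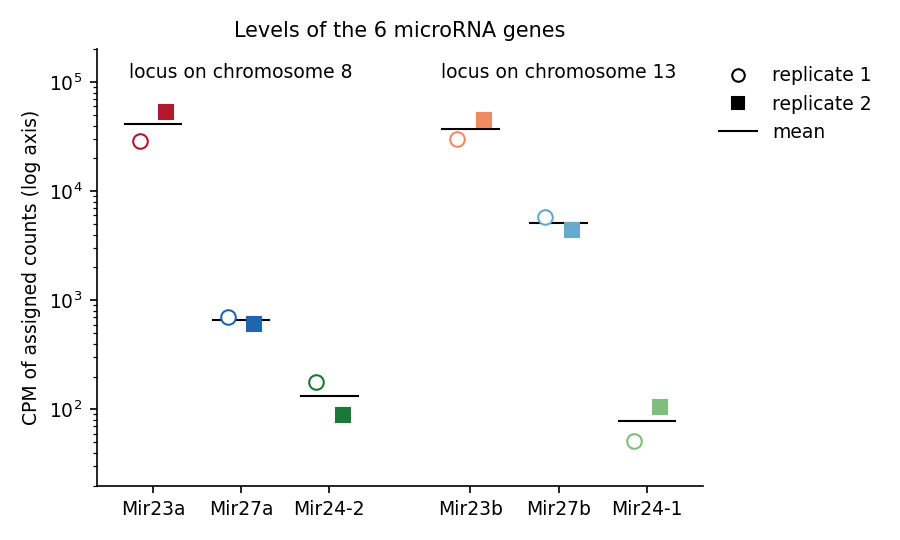
CPM of each gene on a log axis, by cluster, with replicate 1 as open circles, replicate 2 as filled squares and the mean as a line. Wilson 95% counting intervals are drawn and mostly smaller than the symbols. Levels of reads placed on 1 gene fall from Mir23 through Mir27 to Mir24 in both clusters.

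Along each cluster the level of reads placed on 1 gene decreased in the order of the genes, in both libraries. On chromosome 8, Mir23a had 40.8 times the CPM of Mir27a in replicate 1 and 88.8 times in replicate 2, and Mir27a had 3.97 and 6.77 times the CPM of Mir24-2. On chromosome 13, Mir23b had 5.21 and 10.1 times the CPM of Mir27b, and Mir27b had 113 and 42.6 times the CPM of Mir24-1. The steep step lay between Mir23 and Mir27 on chromosome 8 and between Mir27 and Mir24 on chromosome 13.

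Unequal levels of neighbours were also seen elsewhere. Over 46 other pairs of adjacent microRNA genes within 1 kb on a strand, each gene with 10 or more counts, the median log2 level ratio was 2.66 in size. Mir23a against Mir27a stood at 5.91 and Mir27b against Mir24-1 at 6.11, each with 4 other pairs above it. Mir23b against Mir27b (2.86) and Mir27a against Mir24-2 (2.37) lay near the median. The values that involve a Mir24 gene again rest on placed reads only.

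The clusters contributed similar totals but not similar shares of each pair. The chromosome 8 cluster took 2.97% and 5.43% of assigned counts in replicates 1 and 2 (4.20% ± 1.74, SD, n = 2), and the chromosome 13 cluster 3.57% and 4.94% (4.25% ± 0.968). These totals did not differ beyond their spread, and which cluster led changed between the libraries.

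Within the Mir23 pair, Mir23a held 49.1% of the counts in replicate 1 (Wilson 95% interval 48.9 to 49.3) and 54.4% in replicate 2 (54.2 to 54.6), close to an even split. Within the Mir27 pair, Mir27a held 11.0% (10.6 to 11.3) and 11.9% (11.3 to 12.6), so Mir27b supplied most of the pair in both libraries. Within the Mir24 pair, Mir24-2 held 77.8% (75.1 to 80.2) and 46.0% (41.3 to 50.8). Of the 3 pairs, the Mir27 split differed least between the libraries and the Mir24 split most. All 3 splits rest on reads that could be placed on 1 of the clusters. The 3p strands of the Mir27 pair differ at a single base near the 3′ end. The longest stretch shared by the hairpins was 20 bases in the Mir23 pair, as in the Mir27 pair. How many reads were too short or too alike to be placed is not given.

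**Figure D3:**
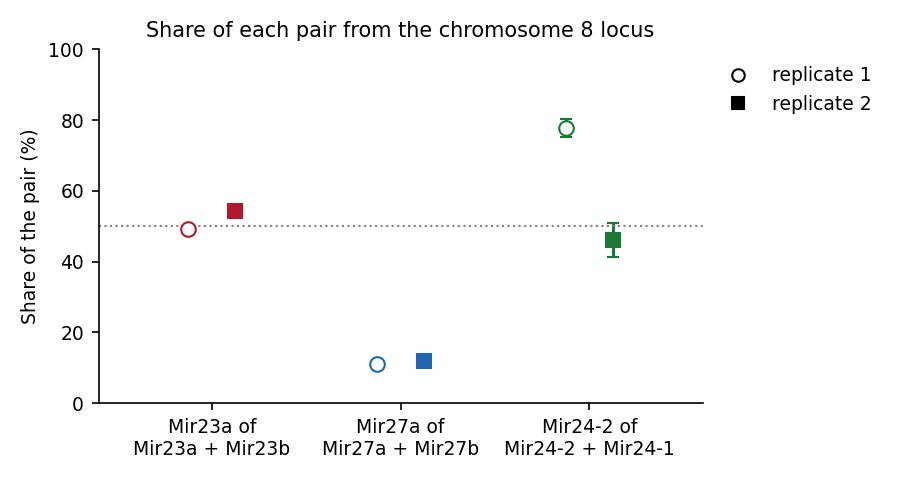
Share in % of each paralogous pair's counts that came from its chromosome 8 gene, with Wilson 95% counting intervals, and replicate 1 as open circles and replicate 2 as filled squares. Mir23a sits near the dotted line at 50%, Mir27a at 11.0% and 11.9%, and Mir24-2 at 77.8% and 46.0%.

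The low Mir24 counts stand beside the identical miR-24-3p of both hairpins. Together Mir24-2 and Mir24-1 held 0.0229% of assigned counts in replicate 1 (1016 counts) and 0.0193% in replicate 2 (417 counts). The tables keep multimapping reads out of gene rows, so the counts of Mir24-2 and Mir24-1 need not hold miR-24-3p, and these levels are no measure of miR-24-3p in this muscle. The part of the repeated strand in the low counts was not tested.

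Other genes with a repeated strand give a scale for these values. Of 1018 counted genes with a mature strand in the RefSeq table, 94 had a strand encoded identically at another locus. Of these 94 genes, 39 reached 2 CPM in both libraries, with a median of 67.5 CPM, 3 above 1000 CPM and 0 above 10000 CPM. Of the 924 genes whose strands were each listed at 1 locus, 250 reached 2 CPM in both, with a median of 52.4 CPM, 41 above 1000 CPM and 19 above 10000 CPM. The genes with a repeated strand thus had the higher median but lacked the highest levels. The list of strands is incomplete. Mir378a, the most abundant gene, has no mature strand in it and is in neither class. Mir1a-2 has none either, so Mir1a-1 is classed among the genes listed at 1 locus. Mir23b is classed there by its 5p strand alone. Among the 94, 14 lay above Mir24-2 and 17 above Mir24-1.

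The most abundant families with a repeated strand outside the clusters were let-7f, Mir196a and Mir92. Mirlet7f-2 held 6240 ± 426 CPM (SD, n = 2) against 203 ± 76.1 for Mirlet7f-1. Mir196a-2, of the Hox clusters, held 3676 ± 418 CPM against 13.4 ± 6.58 for Mir196a-1. Mir92-1, of the Mir17-92 cluster, held 1562 ± 583 CPM against 70.1 ± 21.1 for Mir92-2. In each of these 3 families, chosen for their summed counts, 1 locus held most of the counts in both libraries. This was not so for Mir24, nor for every other pair. Mir16-1 and Mir16-2 held 674 and 182 CPM in replicate 1 and 250 and 405 CPM in replicate 2. Mir26a-1 and Mir26a-2 held 10.8 and 159 CPM, then 124 and 99.7 CPM. The log2 level ratio, averaged over the libraries, was 0.79 in size for the Mir24 pair. Its median over 19 other pairs with an identical strand was 1.88, and 16 of them lay above 0.79.

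**Figure D4:**
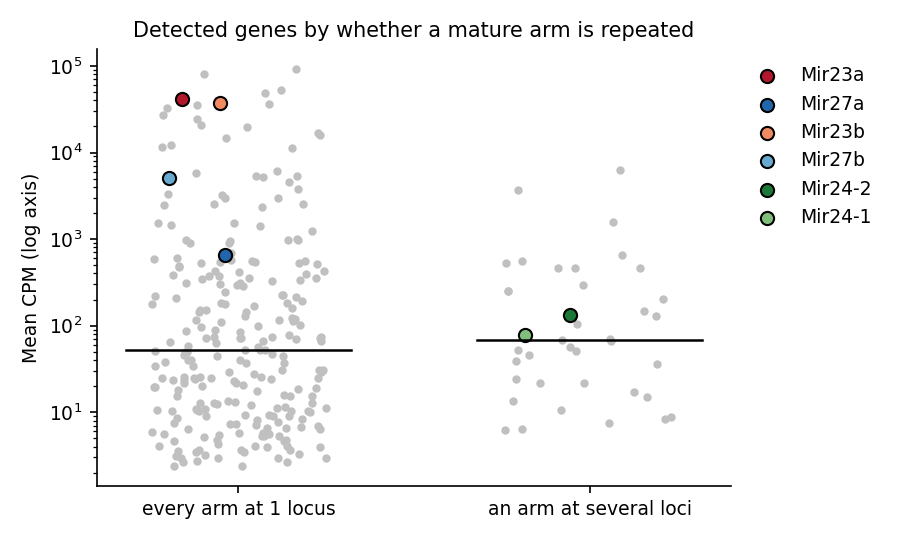
Mean CPM on a log axis of genes at 2 CPM or more in both libraries, split by whether a mature strand is listed at 1 locus or at several, with lines at the medians of 52.4 and 67.5 CPM. Mir23 and Mir27 genes are coloured on the left, and the Mir24 genes, at 133 and 77.6 CPM, sit on the right, where no gene exceeds 10000 CPM.

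Replicate 2 was compared with replicate 1 to see how far the 6 genes differed between samples with the same labels. The Mir23 genes were higher in replicate 2 and the Mir27 genes higher in replicate 1, from both chromosomes, while the Mir24 genes went opposite ways. All 6 genes passed an adjusted p of 0.05 (exact two-sided binomial test, Benjamini-Hochberg over 380 genes), 3 higher in replicate 2 and 3 higher in replicate 1. Of all 380 genes 61.8% passed, 30.3% higher in replicate 2 and 31.6% higher in replicate 1, so passing is common at this depth. The test compares these libraries, not conditions.

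Log2 ratios of replicate 2 over replicate 1 were computed on TMM-scaled CPM + 1. Mir23a stood at 0.99 (95% counting interval 0.98 to 1.00) and Mir23b at 0.68 (0.67 to 0.69), both with adjusted p-values too small for double precision. Mir27b stood at −0.28 (−0.31 to −0.24, adjusted p = 6.24e-58) and Mir27a at −0.13 (−0.23 to −0.041, adjusted p = 0.00913, exact binomial test). The call for Mir27a was lost when only genes with 100 or more counts were tested (log2 ratio −0.036) and when replicate 1 was thinned to the depth of replicate 2 (−0.11). Mir24-1 stood at 1.11 (0.86 to 1.40, adjusted p = 9.41e-16) and Mir24-2 at −0.90 (−1.14 to −0.68, adjusted p = 6.12e-16, exact binomial test).

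These differences lay within the spread of the whole profile. The SD of the log2 ratios was 1.13 over the 228 genes with 100 or more counts, and all 6 members were smaller than that in size, except that Mir24-1 stood at 1.21 when the scaling and test used only those 228 genes. Of those 228 genes, 87.2% had a lower ratio than Mir23a and 90.3% a lower one than Mir24-1, against 19.7% for Mir24-2.

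Members of 1 cluster did not share a ratio. The ratios of Mir23a and Mir27a differed by 1.12 and those of Mir27a and Mir24-2 by 0.76. On chromosome 13 the difference was 0.95 for Mir23b and Mir27b and 1.39 for Mir27b and Mir24-1. Over the 46 other adjacent pairs the median was 0.78, and 15, 23, 19 and 11 of them lay above these 4 values in turn, so differences of this size were common among neighbours. Between paralogs the ratios of Mir23a and Mir23b differed by 0.31 and those of Mir27a and Mir27b by 0.14. Both differences were less than between the neighbours Mir23 and Mir27 of either cluster. They rest on reads that could be placed on 1 of the clusters, and no other pairs with similar but not identical strands were compared. The ratios of Mir24-1 and Mir24-2 differed by 2.01, where the median over 19 other pairs with an identical strand was 0.71 and 3 of these pairs lay above 2.01.

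**Figure D5:**
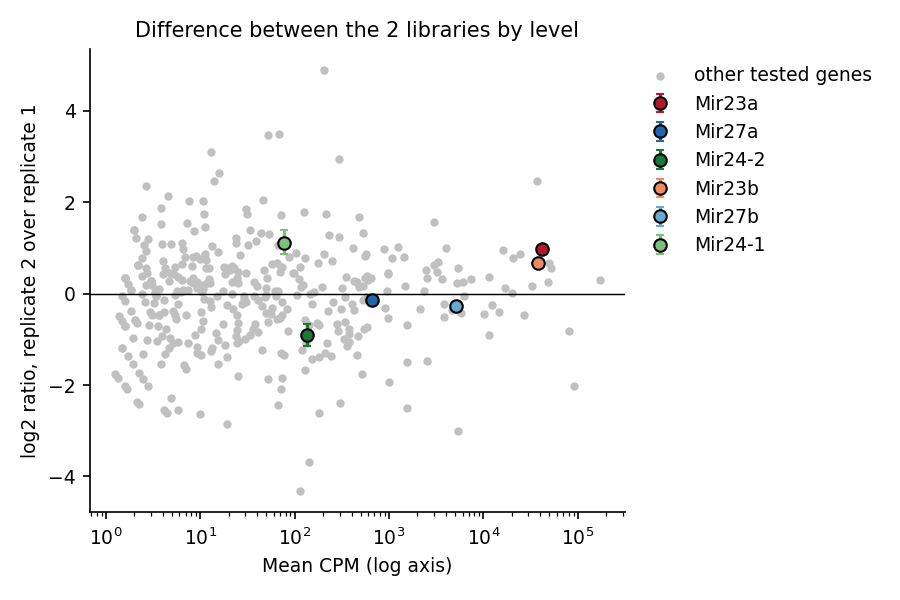
Log2 ratio of replicate 2 over replicate 1 against mean CPM (log axis) for 380 tested genes, with 95% counting intervals for the 6 members. Mir23a and Mir23b lie together above 0 at the right, Mir27a and Mir27b just below 0, and Mir24-1 and Mir24-2 on either side of 0 among the scattered genes of lower level.

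Cell type markers also moved between the libraries. All 9 skeletal muscle microRNA genes had counts in both libraries, and their sum was 1.64% of assigned counts in replicate 1 and 6.57% in replicate 2. Most of that sum was Mir206, at 11810 and 61540 CPM, and without it, chosen after seeing the data, the other 8 held 0.460% and 0.416%. Mir206, Mir499 and Mir208b were called higher in replicate 2, 4 of the 9 higher in replicate 1 (Mir1a-1, Mir1a-2, Mir133b and Mir486), and 2 did not pass. Of the endothelial pair Mir126a held 10.4% and 5.54% while Mir126b had no count, so this list rests on Mir126a alone, called higher in replicate 1. The smooth muscle and mural list (2 of 2 genes with counts in both) held 4.88% and 5.68%, both genes higher in replicate 2. The leukocyte list (4 of 4) held 0.229% and 0.363%, with Mir150 and Mir155 higher in replicate 2 and Mir223 and Mir142 higher in replicate 1. The erythroid list (2 of 2) held 0.0777% and 0.0109%. The fibroblast and stroma list (3 of 4, Mir199a-1 at 0) held 0.165% and 0.0416%, mostly Mir214 at 1620 and 398 CPM. Mir199b and Mir214 were called higher in replicate 1, and Mir199a-2 did not pass. All these shares are of reads placed on 1 gene, without multimapping reads. Mir1a and Mir133a have 2 genes each in the muscle list. Mir199a-1, Mir199a-2 and Mir199b form a family linked by identical strands, so the 0 of Mir199a-1 sets no limit on its strands. Mir27a, Mir27b and Mir24-2 were lower in replicate 2 along with Mir126a, the erythroid genes Mir451a and Mir144 and, of the stroma list, Mir199b and Mir214. The 4 muscle genes called higher in replicate 1 and, of the leukocyte list, Mir223 and Mir142 went the same way. Mir23a, Mir23b and Mir24-1 were higher in replicate 2 along with the smooth muscle and mural list. So were 3 of the 9 muscle genes and, of the leukocyte list, Mir150 and Mir155. The part of cell content in these differences was not tested. In bulk tissue, fewer cells of a type and less RNA per cell cannot be told apart.

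The genes most like each member were sought by the distance of log2(CPM + 1) over the 2 libraries, which with 2 points describes level and little else. Mir23b was nearest to Mir26b, an intronic gene of the Ctdsp1 host (distance 0.11) and then to Mir23a, and Mir23a to Mir23b (0.26) and then Mir26b (0.34). Mir27a was nearest to Mir17 (0.13) and Mir193a (0.30), and Mir27b to Mir125a (0.22) and Mir30e (0.25). Mir24-2 was nearest to Mir1a-2 (0.14) and Mir26a-2 (0.23), both of multi-locus families. Mir24-1 was nearest to Mir30c-1 (0.29), which has a repeated strand, and Mir487b (0.37), whose strands are listed at 1 locus.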

How the data were processed

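Small RNA of 2 gastrocnemius libraries was measured by microRNA-seq. The authors' deposited tables hold raw counts per microRNA gene on mm10 with GENCODE M21, as the deposited readmes state. For the aligner, trimming and counter, a tool is not given in the sources used here. Of 3 count columns, read from their values as without strand, gene strand and opposite strand, the gene strand was used. Rows that name no gene (84.3% of reads in replicate 1 and 80.2% in replicate 2, mostly multimapping) stayed out of totals.

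All 2202 gene identifiers matched M21. RefSeq (GRCm38.p6) gave sequences for the 6 hairpins at the same coordinates and 11 mature strands. CPM used all assigned counts. An exact binomial test with edgeR's TMM scaling was run across all genes whose counts in both libraries summed to at least 10. The test was checked on simulated data. Level ratios of adjacent or identical-strand pairs are means over libraries of counts + 0.5.

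Named genes were the 6 members, overlapping microRNA genes, seed mates of 3p strands, the 2 nearest genes in level, and the 3 highest repeated-strand families. Members and lists were chosen with earlier results of these data known. Alternatives were the counts without strand, other totals, scalings, pseudocounts, filters and detection thresholds, and each library alone. Totals without Mir22 and Mir206, a thinned replicate 1 and the muscle list without Mir206 were added after seeing the data. Tools were R 4.3.3, edgeR 4.0.16, DESeq2 1.42.0 (size factors only), Python 3.11.15, scipy 1.17.1, matplotlib 3.10.9, pandas 2.3.3 and numpy 2.4.6.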

Additional observations from a re-analysis of the deposited data

Results flagged for a closer look

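Mir3074-1, on the minus strand opposite Mir24-1, had 35 counts in replicate 1 and 19 in replicate 2, above the 3 counts that a count of 0 allows. It was looked at because it lies outside the 6 genes yet carries reads from the same stretch of chromosome 13. Its log2 ratio of 0.23 did not pass the exact binomial test (adjusted p = 0.639). Mir3074-2, opposite Mir24-2, had 0 counts in either library. RefSeq lists miR-3074-5p at both of these genes, and multimapping reads are in no gene row, so this 0 sets no limit on that strand.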

How the results depend on the processing

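Of 140 alternative values over 25 results, 129 counted as kept in direction, call or range, 9 moved beyond the spread and 2, both for Mir27a, lost their call. Numbers of members detected or called counted as kept also where they fell, from 6 to 4 detected or from 3 to 2 called. For shares, levels and level ratios, 1 library of 2 always lies within their SD, so its value could only count as kept. No log2 ratio between the libraries changed sign, but with 1 library alone the leading gene changed in the Mir23 pair (replicate 1) and the Mir24 pair (replicate 2). With the counts without strand, which have smaller totals, the clusters took 11.7% of assigned counts and the chromosome 13 cluster 5.88%. There Mir24-2 and Mir24-1, which overlap genes on the other strand, had 0 counts, so 4 of 6 genes were detected and tested and the Mir24 pair gave no share or ratio. The other moved values were levels of Mir23b, Mir27a and Mir27b under smaller totals. With a single library the clusters' share was 6.54% or 10.4%, the chromosome 8 cluster's 2.97% or 5.43% and the chromosome 13 cluster's 3.57% or 4.94%. Likewise the pair shares were 49.1% or 54.4% for Mir23a, 11.0% or 11.9% for Mir27a and 77.8% or 46.0% for Mir24-2. Log2 level ratios with a single library were −5.35 or −6.47 for Mir27a over Mir23a, −7.34 or −9.23 for Mir24-2 over Mir23a, −2.38 or −3.33 for Mir27b over Mir23b and −9.20 or −8.75 for Mir24-1 over Mir23b. All 6 genes were detected in each library alone. The ratio between libraries has no value with 1 library. Calls were 3 higher in replicate 2 and 3 higher in replicate 1, except 2 and 2 of the 4 tested without strand and 3 and 2 with the 100-count filter or replicate 1 thinned. Without a count filter the median log2 ratio of all genes was −0.16 and with totals without Mir22 and Mir206 also −0.16, against 0.020. No paired analysis was possible because there is 1 group. Depth limits the Mir24 genes most, at 192 to 790 counts for Mir24-2 and 225 to 226 for Mir24-1.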
